A study of Saccharomyces cerevisiae with 2 samples.

Results

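The mating type specific genes of budding yeast are those that only a cells or only alpha cells are known to transcribe. A set of 10 was taken by gene name from the deposited tables, 10 of the 6603 listed open reading frames (ORFs). It holds 6 a-cell genes (MFA1, MFA2, STE2, STE6, BAR1 and AGA2) and 4 alpha-cell genes (MF(ALPHA)1, MF(ALPHA)2, STE3 and SAG1). All 10 were found in both tables. The data are 2 mRNA libraries of Saccharomyces cerevisiae, 1 of strain CY2706, whose TRA1 gene is wild type, and 1 of strain CY3003, which has the tra1-L3733A allele. Tra1 is a large protein found in both of the histone acetyltransferase complexes SAGA and NuA4. Both strains grew in YP medium with 2% glucose at 30 °C and were taken at an A600 of 2.0. The labels name no mating type, strain background or further allele. The question is how transcript levels differ when the substitution replaces the wild-type protein. With 1 library per strain, no difference has a replicate check, and every comparison is of these libraries, not of the genotypes.

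A haploid yeast cell mates as an a cell or an alpha cell according to the allele at its MAT locus. In alpha cells the alpha1 protein, with Mcm1, activates the alpha-specific genes, and the alpha2 protein, with Mcm1, binds an operator upstream of each a-specific gene and represses it through the corepressors Tup1 and Cyc8. In a cells neither protein is made, so Mcm1 activates the a-specific genes and the alpha-specific genes stay off. Each cell type secretes a peptide pheromone and carries the receptor for the pheromone of the other. Silent copies of the mating type genes at HML and HMR are kept off by the Sir proteins.

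Stretches upstream of 9 of the 10 genes are shown for letters that belong to sites through which mating type is known to act. They were read from the R64 reference (RefSeq) by ORF identifier, with R64 coordinates, in the 350 bases before the start codon. Upstream of each a-cell gene the letters CATGTAA, part of the site that alpha2 binds, stood 3 or 4 bases before a box of CC and GG with any 6 bases between them, the core of an Mcm1 site. Capitals mark CATGTAA and the CC and GG of the box, and each line is written 5′ to 3′ on the strand that reads in this order.
MFA1: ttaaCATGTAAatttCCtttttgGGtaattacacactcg
MFA2: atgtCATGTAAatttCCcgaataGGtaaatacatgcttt
STE2: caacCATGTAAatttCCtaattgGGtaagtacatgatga
STE6: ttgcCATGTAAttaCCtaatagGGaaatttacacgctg
BAR1: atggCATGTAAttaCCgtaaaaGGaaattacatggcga
AGA2: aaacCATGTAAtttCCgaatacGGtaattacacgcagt

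These stretches lie at chrIV:1384938-1384976 for MFA1 (reverse strand), chrXIV:352159-352197 for MFA2 (reverse strand), chrVI:82347-82385 for STE2 (forward strand), chrXI:46474-46511 for STE6 (reverse strand), chrIX:322074-322111 for BAR1 (forward strand) and chrVII:437098-437135 for AGA2 (reverse strand), all R64. The gap between CATGTAA and the box was 4 bases at MFA1, MFA2 and STE2 and 3 bases at STE6, BAR1 and AGA2. Searched on both strands of the same window, CATGTAA with the box at either gap was found in 8 of 6002 protein-coding promoters (0.133%), of which 6 were the a-cell genes and 0 the alpha-cell genes. The spacing was set after the separate matches had been seen. CATGTAA alone was in 4.45% of all promoters, in 6 of 6 a-cell promoters and in that of SAG1, and the box alone in 34.8% of all promoters. In a window of 250 bases the combined form remained in 4 of 6 a-cell promoters, since those of BAR1 and AGA2 lie farther out.

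Upstream of 3 alpha-cell genes the same window held the CC and GG box at MF(ALPHA)1 and SAG1 and the letters TCAATG, the start of the site that alpha1 binds, at STE3. The stretches are shown on the strand of each gene, with these letters in capitals.
MF(ALPHA)1: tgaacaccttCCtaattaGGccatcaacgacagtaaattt
STE3: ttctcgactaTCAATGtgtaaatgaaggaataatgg
SAG1: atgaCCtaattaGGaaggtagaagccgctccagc

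They lie at chrXVI:193329-193368 (forward strand), chrXI:114906-114941 (reverse strand) and chrX:445178-445211 (reverse strand) of R64. TCAATG was in 20.4% of all promoters on either strand, that of MFA2 among them, and so was more common than CATGTAA. A match of these letters alone does not show that the stretch at STE3 is a site of alpha1. No CC and GG box was found at STE3 in the same window. All of these matches describe the reference sequence and are not measurements of binding.

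Transcripts of all 6 a-cell genes were more abundant than those of all 4 alpha-cell genes in either library. Levels are counts per 1000000 (CPM) of the scaled library size, divided by the kilobases of the ORF, so that genes of unequal length can be compared, and the brackets give 95% exact Poisson intervals, which cover counting error only. The 6 a-cell genes ranged from 97.1 to 225 CPM per kilobase in the TRA1 library and from 94.9 to 241 in the tra1-L3733A library. The 4 alpha-cell genes ranged from 4.02 to 22.3 and from 6.54 to 36.6. Among all 6603 ORFs the a-cell genes stood between the 78.9 and 90.2 percentiles of this level in the TRA1 library, and the alpha-cell genes between the 7.44 and 36.1 percentiles. In the tra1-L3733A library the ranges were 79.0 to 90.6 and 10.8 to 54.2, the last of these for SAG1, which thus stood above the middle of all ORFs there.

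In the TRA1 library the receptor gene STE2 was highest, at 225 CPM per kilobase (217 to 232). MFA1 at 153 (133 to 175), AGA2 at 136 (123 to 149), MFA2 at 135 (116 to 156) and BAR1 at 133 (128 to 138) followed, and neighbours among these 4 had overlapping intervals. STE6 was lowest of the a-cell genes at 97.1 (94.3 to 99.9). SAG1 came next at 22.3 (20.4 to 24.3), then MF(ALPHA)2 at 10.8 (7.95 to 14.4). MF(ALPHA)1 at 5.37 (3.67 to 7.58) and STE3 at 4.02 (3.12 to 5.10) had overlapping intervals. The order of the tra1-L3733A library differed in that MFA2 stood above AGA2 and MF(ALPHA)1 above MF(ALPHA)2, and in either case the intervals of the pair overlapped. The ORFs of MFA1 (111 bases) and MFA2 (117 bases) are short against the 35-nucleotide reads, so that fewer positions of them can start a whole read. With the span reduced to those positions MFA1 stood above STE2 in the tra1-L3733A library, and MFA2 stood above AGA2 in both.

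**Figure D1:**
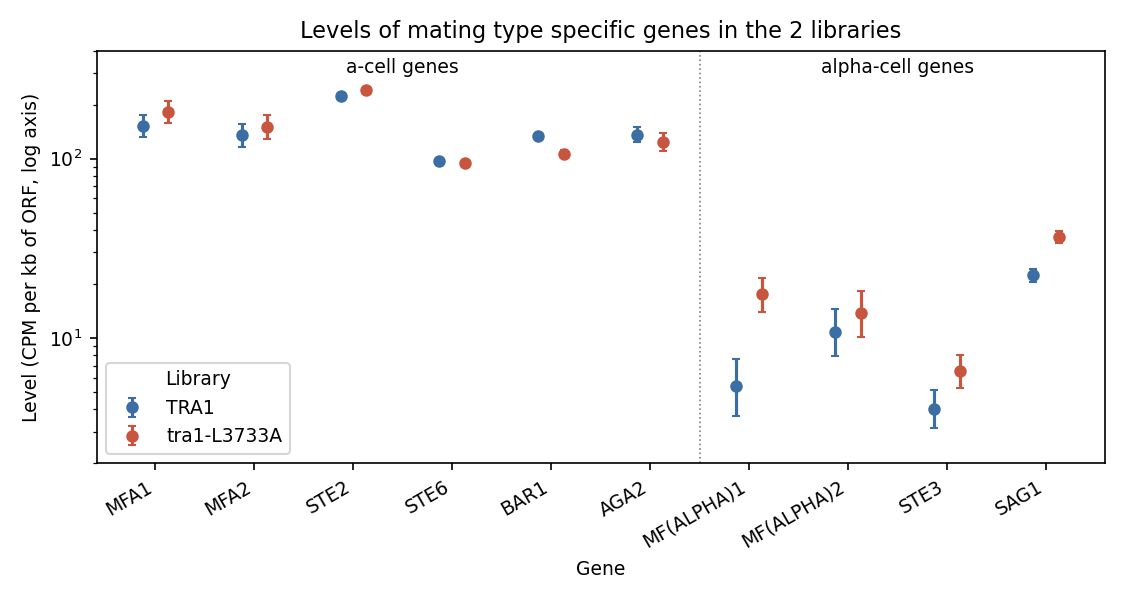
Level of each of the 10 genes in CPM per kilobase of ORF on a log axis, in the TRA1 library (blue) and the tra1-L3733A library (red), 1 library per strain, with bars for the 95% exact Poisson interval. The 6 a-cell genes lie between 94.9 and 241 and the 4 alpha-cell genes between 4.02 and 36.6.

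The labels do not give a mating type, and the mating type loci were read as a further check. The alpha1 genes MATALPHA1 and HMLALPHA1 had 3 and 2 reads for TRA1 and 4 and 4 for tra1-L3733A. The alpha2 ORFs MATALPHA2 and HMLALPHA2 had 74 and 69 reads for TRA1 and 95 and 96 for tra1-L3733A. Per kilobase MATALPHA2 stood at 9.77 CPM in TRA1 and 15.6 in tra1-L3733A, against 4.02 and 6.54 for the longer ORF of STE3. HMRA2 had 56 and 87 reads, and HMRA1, which encodes the a1 protein, had 183 and 108. All 35-base windows of the alpha1 and alpha2 ORFs and of HMRA2 occur at another place in R64, so reads of the copies at MAT, HML and HMR cannot be separated. Of the 453 windows of HMRA1, 0 occur elsewhere in R64, which has the alpha genes at MAT. Any a1 reads from a MAT locus would thus be counted at HMRA1, whose reads do not show that the silent copy was expressed. Reads of the alpha1 ORFs were near 0 in both libraries, and those counted at the alpha2 ORFs were not. The alpha2 ORFs share sequence with HMRA2, so reads counted there do not show which of these ORFs was transcribed.

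None of the a-cell genes differed between the libraries by the size rule used here, while 3 of the 4 alpha-cell genes were higher in tra1-L3733A. A gene was called higher or lower by size where it had at least 20 reads over both libraries, a ratio of tra1-L3733A to TRA1 of at least 1.5 either way, and a 95% exact (Clopper-Pearson) counting interval that excludes 1. Of 6 a-cell genes, 0 were called higher and 0 lower. Of 4 alpha-cell genes, 3 were called higher and 0 lower. Over all 6248 ORFs tested, 2.80% were called higher and 5.46% lower. In numbers these were 175 and 341 ORFs, against 91 and 515 when total counts set the scale, under which the calls of the 10 genes were the same. The median log2 ratio was 0.03 for the a-cell genes and 0.71 for the alpha-cell genes, against -0.00 for all ORFs tested. Among the 3289 ORFs with 95 to 1210 reads, the range of the alpha-cell genes, 3.13% were called higher.

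**Figure D2:**
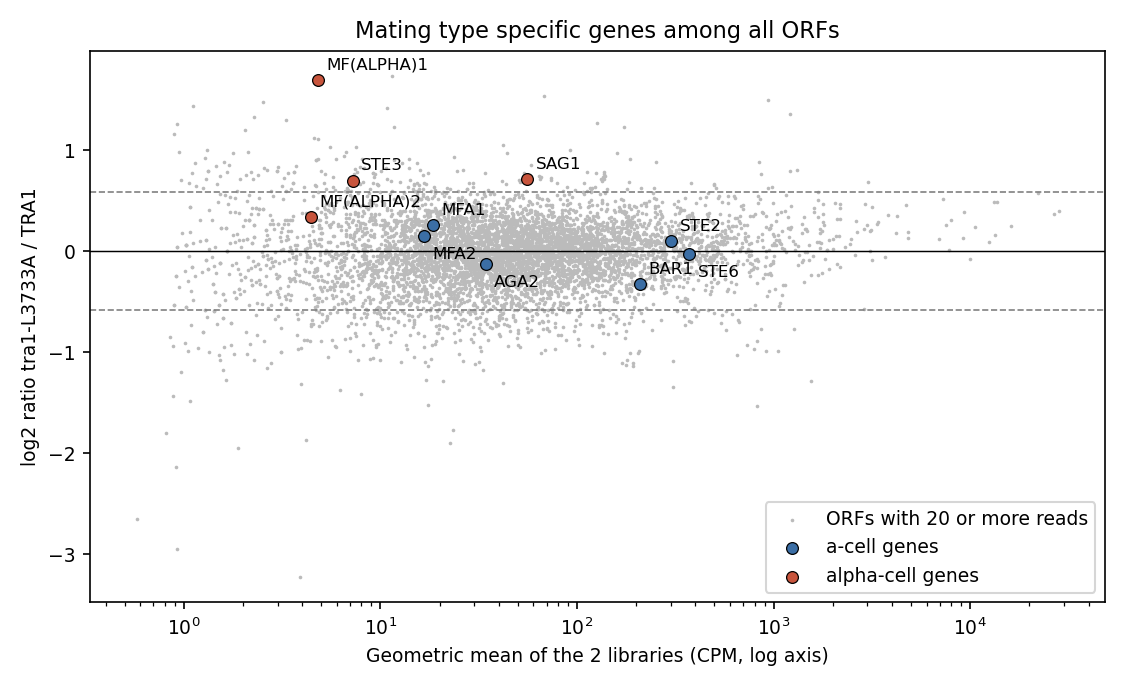
Log2 ratio of tra1-L3733A to TRA1 against the geometric mean of the libraries in CPM (log axis) for the 6248 ORFs with 20 or more reads (grey), with the a-cell genes in blue, the alpha-cell genes in red and dashed lines at a ratio of 1.5 either way. The 6 a-cell genes lie between the dashed lines, and MF(ALPHA)1, STE3 and SAG1 lie above the upper one.

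Among the a-cell pheromone genes, MFA1 (YDR461W, chromosome IV, 1385169 to 1385279 in the files' coordinates), which encodes a precursor of the lipid-modified peptide a-factor, had 203 reads for TRA1 against 195 for tra1-L3733A. That is 17.0 against 20.2 CPM, a ratio of 1.19 (0.975 to 1.46). MFA2 (YNL145W, XIV, 352416 to 352532), the other a-factor precursor gene, had 189 and 169 reads, or 15.8 against 17.5 CPM and a ratio of 1.11 (0.897 to 1.37). Neither interval excluded 1. The read directions of MFA2 went opposite ways. Its 86 and 121 forward (fr) reads gave a ratio of 1.75 (1.31 to 2.33), and its 103 and 48 reverse (rr) reads gave 0.579 (0.402 to 0.822). It was the 1 gene of the 10 whose intervals by direction did not overlap, against 156 of the 6248 ORFs tested (2.50%), so the counting interval of MFA2 is too narrow and its ratio is uncertain. MFA1 was uneven by direction within each library, with 81.3% forward reads in TRA1 and 87.7% in tra1-L3733A.

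The a-cell transporter and receptor genes held the most reads of the 10. STE6 (YKL209C, XI, 42424 to 46296), the ABC transporter that exports a-factor, had 4498 and 3541 reads, or 376 against 367 CPM. Its ratio was 0.977 (0.935 to 1.02), which did not differ from 1 beyond counting error. STE2 (YFL026W, VI, 82578 to 83873), the receptor for alpha-factor, had 3485 and 3008 reads, or 291 against 312 CPM and a ratio of 1.07 (1.02 to 1.13). Its interval lay above 1, but the difference was far below the size rule, and with the libraries scaled by total counts the ratio was 1.001 (0.953 to 1.05).

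BAR1 (YIL015W, IX, 322340 to 324103), the secreted protease that degrades alpha-factor, had the lowest ratio of the a-cell genes. It had 2814 and 1808 reads, or 235 against 188 CPM, a ratio of 0.798 (0.751 to 0.846). Forward and reverse reads gave 0.810 and 0.786, so the value did not rest on a single direction, yet it did not reach the size rule. AGA2 (YGL032C, VII, 436575 to 436838), the adhesion subunit of a-agglutinin, had 429 and 316 reads, or 35.9 against 32.8 CPM and a ratio of 0.914 (0.788 to 1.06). AGA1, the anchor subunit that both cell types make, had 2023 and 1890 reads, a ratio of 1.16 (1.09 to 1.24), though its fr and rr intervals did not overlap.

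The alpha-factor genes differed from each other. MF(ALPHA)1 (YPL187W, XVI, 193647 to 194144), the major gene for the alpha-factor precursor, had 32 reads for TRA1 against 84 for tra1-L3733A, or 2.67 against 8.72 CPM. Its ratio of 3.26 (2.15 to 5.06) was the farthest from 1 of the 10 genes and rested on both directions, at 3.43 on 17 and 47 forward reads and 3.06 on 15 and 37 reverse reads. The ORF holds tandem repeats, and 94 of its 464 windows of 35 bases (20.3%) occur more than once within it and 0 outside it, so the aligner's treatment of repeated reads may have lowered its counts in either library. MF(ALPHA)2 (YGL089C, VII, 344794 to 345156), the minor alpha-factor gene, had 47 and 48 reads, or 3.93 against 4.98 CPM. Its ratio of 1.27 (0.830 to 1.94) was not distinguishable from 1 at this depth, and the upper bound still allows a ratio above 1.5.

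The alpha-cell receptor and agglutinin genes had nearly the same ratio. STE3 (YKL178C, XI, 113220 to 114632), the receptor for a-factor, had 68 and 89 reads, or 5.68 against 9.23 CPM and a ratio of 1.62 (1.17 to 2.26). It shares 272 bases with YKL177W (XI, 114361 to 114699), which had 8 reads in either library. SAG1 (YJR004C, X, 442901 to 444853), the alpha-agglutinin that binds Aga2 on the partner cell, had 521 and 689 reads, or 43.5 against 71.5 CPM and a ratio of 1.64 (1.46 to 1.84). SAG1 had the most reads of the alpha-cell genes, 78.0% of theirs for TRA1 and 75.7% for the mutant allele. Its directions gave 1.60 (1.35 to 1.89) and 1.68 (1.43 to 1.98), and those of STE3 gave 1.62 (1.004 to 2.63) and 1.63 (1.03 to 2.61).

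**Figure D3:**
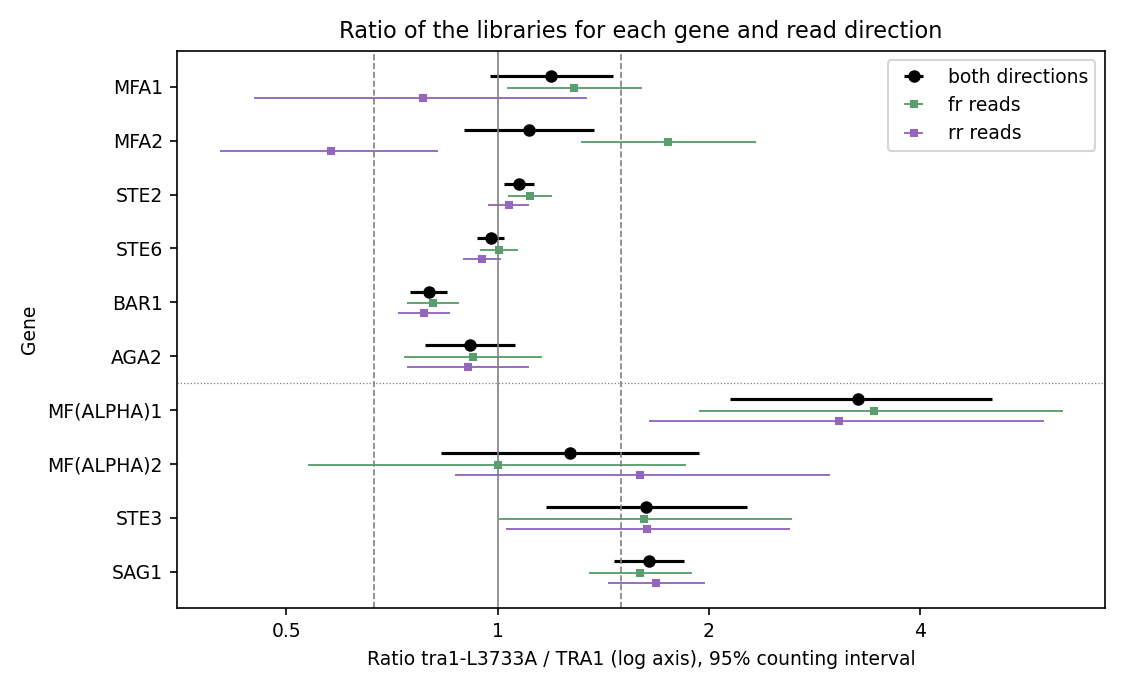
Ratio of the tra1-L3733A to the TRA1 library for each gene on a log axis, from all reads (black), fr reads (green) and rr reads (purple), with 95% counting intervals, a solid line at 1 and dashed lines at a ratio of 1.5 either way. MF(ALPHA)1, STE3 and SAG1 lie past 1.5 on all reads, and the fr and rr intervals of MFA2 lie apart at 1.75 and 0.579.

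Set against the a-cell genes of the same library, a comparison that needs no scaling between libraries, the alpha-cell genes were also higher in tra1-L3733A. The 4 alpha-cell genes held 668 of 12286 reads of the 10 genes in the TRA1 library, a share of 5.44% (5.04 to 5.85, exact binomial). In the tra1-L3733A library they held 910 of 9947, or 9.15% (8.59 to 9.73). Per 100 a-cell reads there were 4.48 SAG1 reads in TRA1 and 7.62 in tra1-L3733A, 0.275 and 0.930 MF(ALPHA)1 reads, 0.585 and 0.985 STE3 reads, and 0.405 and 0.531 MF(ALPHA)2 reads. All 4 were thus larger in tra1-L3733A on this measure, though MF(ALPHA)2 had a ratio whose interval includes 1. The summed alpha-cell reads had a scaled ratio of 1.69 (1.53 to 1.87), and 1.87 (1.51 to 2.32) without SAG1. Neither sum includes YLR040C, a further alpha-specific gene that was lower, at 0.528 (0.391 to 0.705). The summed a-cell reads had a ratio of 0.966 (0.939 to 0.993). Per kilobase the summed a-cell level was 20.7 times the summed alpha-cell level in the TRA1 library and 12.1 times in the tra1-L3733A library, so the alpha-cell genes lay below the a-cell genes in both. Fewer cells with these transcripts and less RNA per cell cannot be told apart in whole cultures.

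Other genes with the same cell type restriction did not all go the same way. ASG7, a further a-specific gene, had 171 and 128 reads, a ratio of 0.929 (0.733 to 1.18). YLR040C, named AFB1 in R64 and known as an alpha-specific gene for a secreted a-factor barrier protein, had 160 and 68 reads and was lower at 0.528 (0.391 to 0.705), opposite to MF(ALPHA)1, STE3 and SAG1. It shares 206 bases with YLR041W, which had 49 and 18 reads, a ratio of 0.456 (0.250 to 0.797).

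The genes that set cell identity were mixed. Of 6 ORFs of the mating type loci, 4 had enough reads, of which 3 were higher and 0 lower, beside 2.80% and 5.46% of all ORFs tested. These were MATALPHA2 on 74 and 95 reads at 1.59 (1.16 to 2.19), HMLALPHA2 on 69 and 96 reads at 1.73 (1.25 to 2.39) and HMRA2 on 56 and 87 reads at 1.93 (1.36 to 2.75), which share sequence and so are not separate observations. The call of MATALPHA2 was lost when libraries were scaled by total counts or by lane reads, and on rr reads alone, that of HMLALPHA2 on fr reads, and that of HMRA2 on rr reads. HMRA1, chosen after its values were seen, was at 0.733 (0.572 to 0.934). Of the Sir genes, SIR3 on 426 and 169 reads at 0.492 (0.410 to 0.590) and SIR4 on 1104 and 521 reads at 0.586 (0.527 to 0.651) were lower, and 0 of the 4 were higher, against the same shares of all ORFs. Their part in the alpha-cell values was not tested. Of the regulators MCM1, TUP1 and CYC8, 0 passed the size rule, with MCM1 at 1.24 (1.17 to 1.31) and CYC8 at 0.810 (0.768 to 0.853).

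Among genes for pheromone maturation (10 tested), signalling (19 tested) and response (12 tested), 4 were lower and 0 higher. Over all ORFs tested 5.46% were lower and 2.80% higher, and for lists of this size 0 higher is near that share. Of the 4 lower genes, 3 were in the pheromone-induced list. Of 10 maturation genes 0 passed, with the a-factor methyltransferase gene STE14 at 0.705 (0.607 to 0.819), which was called lower when total counts or lane reads set the scale and on rr reads alone, and the farnesyltransferase subunit gene RAM1 at 1.10 (0.957 to 1.27). RCE1, a protease gene of the same pathway chosen after its values were seen, was called lower on its 84 and 41 fr reads alone. Of 9 haploid-specific genes 0 passed, with the G protein alpha subunit gene GPA1 at 0.864 (0.790 to 0.944) and the scaffold gene STE5 at 1.18 (1.05 to 1.32). Of 19 signalling genes 1 was lower (5.26%, near the 5.46% of all ORFs) and 0 were higher. That gene was STE12, the transcription factor of the pathway, with 918 and 429 reads, a ratio of 0.580 (0.516 to 0.651). Of 14 pheromone-induced genes 12 had enough reads, and 3 were lower and 0 higher, or 25% lower against 5.46% of all ORFs. These were PRM4 at 0.597 (0.419 to 0.842), PRM3 at 0.621 (0.383 to 0.985) and KAR5, a nuclear fusion gene, at 0.631 (0.484 to 0.818), and the calls of PRM3 and PRM4 were lost on rr reads. FUS2, chosen after its values were seen, was called higher on its 20 and 31 rr reads alone, so that direction gave 1 higher and 1 lower. Medians of these 4 lists lay between -0.07 and -0.02 on the log2 scale. Over all 8 lists 3 of 57 tested genes were higher (5.26%) and 7 lower (12.3%), against 2.80% and 5.46% of all ORFs tested. The 3 higher were MATALPHA2, HMLALPHA2 and HMRA2, which share sequence, so the 5.26% does not rest on separate observations.

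**Figure D4:**
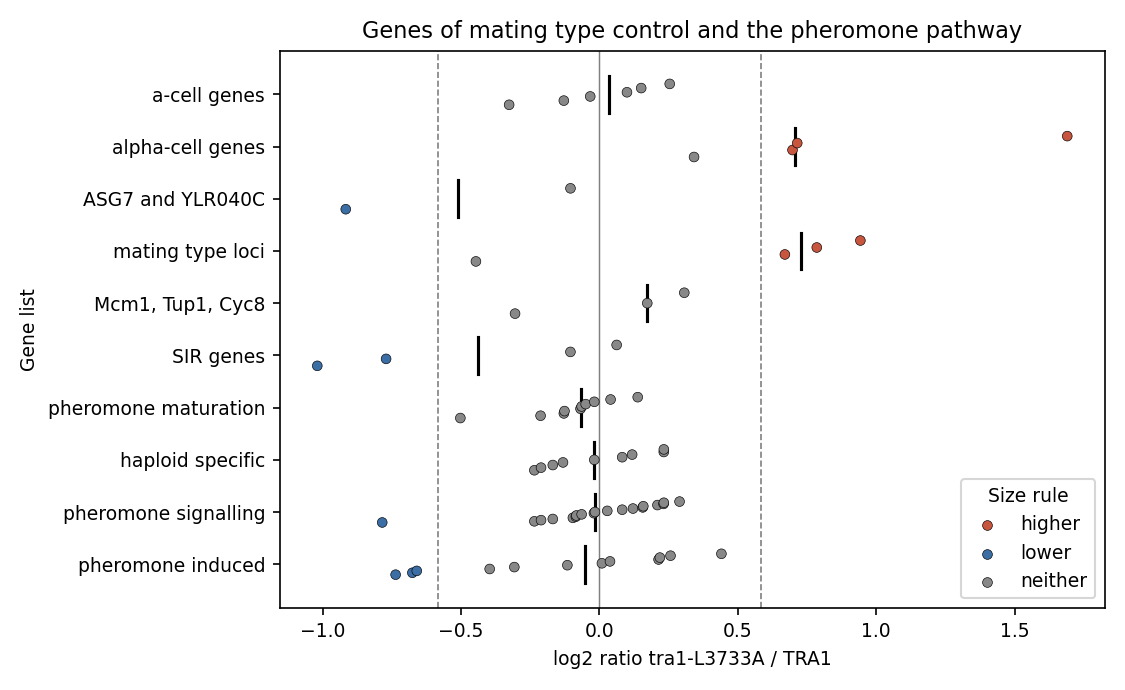
Log2 ratio of tra1-L3733A to TRA1 for each gene with at least 20 reads in the 10 lists, with black bars for the median of each list, dashed lines at a ratio of 1.5 either way and colours for genes called higher (red), lower (blue) or neither (grey). The alpha-cell genes and the mating type loci have medians of 0.71 and 0.73, and the a-cell genes a median of 0.03.

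For the series as a whole, the summed counts were 11564964 in the TRA1 and 9970836 in the tra1-L3733A table, and the 10 genes held 0.106% and 0.0998% of them. The TRA1 transcript had 12035 and 5102 reads, a ratio of 0.526 (0.509 to 0.544), a value that does not check a point mutation.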

How the data were processed

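The submitters' processing notes name Novoalign, with its version, genome build and annotation each not given in the sources used here. Raw counts were deposited per ORF under the headings fr and rr, per the file headers. They were taken as forward and reverse reads and summed, with strand unknown. A deposited coverage signal equals that sum per base in every entry and was used only for this check. Starts equal those of R64 for 917 of 5916 matched identifiers, so no coordinates were mixed. The upstream stretch of MF(ALPHA)2 is not reported here. All 10 members have their R64 span and a single coding segment there.

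Library sizes were TMM-scaled with edgeR 4.0.16 in R 4.3.3. Without replicates edgeR's quasi-likelihood test cannot be run, so no p-value is given. Intervals, and the floor of 3 counts (0.259 CPM of the unscaled total in TRA1 and 0.301 in tra1-L3733A), cover counting error only, as the reads carry no molecular identifiers. Log2 ratios add 0.5 reads. The calculation was tested on simulated counts that vary by counting error only, so that test does not cover variation between cultures. The members, lists and size rule were chosen with earlier results of these data known. Named are the members, TRA1, ORFs overlapping a member, and of each list the genes that passed the size rule or else the 2 whose interval bound lies farthest from 1. RAM1 came from a tie among the maturation genes whose intervals include 1. AGA1, ASG7, FUS2, HMRA1, RCE1, YLR041W, MOG1 and the alpha1 genes are named outside this rule. Alternatives were other scalings (total counts, lane reads, DESeq2 1.42.0 size factors), read filters, a single read direction, no overlapping ORFs, 1 read added and a shorter span.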

Additional observations from a re-analysis of the deposited data

How the results depend on the processing

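MF(ALPHA)1 and SAG1 were called higher under every scaling, filter and read direction tried, and so was STE3 except without overlapping ORFs, which removes it and leaves 2 of 3 tested alpha-cell genes. STE3 and SAG1 were only just above the cut of 1.5 with total counts (1.52 and 1.53) and with lane reads (1.53 and 1.54). The a-cell genes had 0 calls except MFA2, higher on fr reads (1 higher) and lower on rr reads (1 lower), where their median was -0.24. That median was also below 0 when total counts (-0.06) or lane reads (-0.06) set the scale. Over all ORFs 175 were higher and 341 lower, against 91 and 515 with total counts and 98 and 500 with lane reads. The alpha-cell share was 4.61% in TRA1 and 7.64% in tra1-L3733A from levels per kilobase, 4.91% and 8.33% without overlapping ORFs, and 1.25% and 2.39% without SAG1, an alternative chosen after seeing the data. MF(ALPHA)1, MF(ALPHA)2 and STE3 rest on under 100 reads a library, which limits their precision. No paired analysis was possible because there was 1 library per strain.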

Other observations

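The other promoters with the same combination of CATGTAA and the CC and GG box within 350 bases of the start codon in R64 were those of ASG7 and MOG1. MOG1, which encodes a nuclear import factor and is not a mating type specific gene, had 497 and 514 reads, or 63.2 against 81.2 CPM per kilobase, and a ratio of 1.28 (1.13 to 1.46). ASG7 stood at 22.7 against 21.1 CPM per kilobase, close to SAG1 in the TRA1 library (22.3) and below the other a-specific genes. Of the 8 genes, 0 passed the size rule in either direction, beside 2.80% higher and 5.46% lower of all ORFs tested. For so few genes, 0 is near those shares.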
